A study of Mus musculus with 10 samples.

Results

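The set described here is 1323 stretches of the mouse genome that carried an ATAC-seq peak in each of 4 libraries of freshly sorted bone marrow stroma and in none of 6 libraries of cultured stroma. ATAC-seq uses a transposase that cuts accessible DNA and tags it for sequencing, so a peak marks open chromatin. Overlapping peaks of all 10 libraries on chromosomes 1 to 19 and X were merged into 201290 union regions, and a region was called open in a library that had any peak in it. The members were chosen by the presence of peaks in the 4 sorted lists and their absence from the 6 cultured lists. They are 1323 of the 13652 regions open in all sorted libraries, or 9.69%, and that presence and absence is not a finding.

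All cells came from C57BL/6J mice and, for the sorted groups, were negative for CD45, Ter119 and CD31, the surface antigens used to remove leukocytes, red blood cell precursors and endothelium. Scf-GFP-positive stroma (2 libraries) and Scf-GFP-negative stroma (2 libraries) were sorted fresh, with no transduced gene; the reporter marks cells that express stem cell factor, the product of Kitl. The other groups were grown from sorted Scf-GFP-positive cells, with 20% serum and 10 ng/ml FGF-basic in the medium. They were rMSC (3 libraries), which carried Klf7, Xbp1, Irf3, Irf7 and Ostf1 by transduction, and control cultures (3 libraries), transduced with a control vector. Each library was made from 2700 to 5000 cells. Nothing in the labels ties a replicate to its own animal or culture, so every p-value below rests on library-to-library spread that may be technical. In bulk libraries, fewer cells of a type and less open chromatin per cell cannot be told apart.

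Bone marrow stroma holds mesenchymal cells that line vessels and bone and make factors on which blood stem cells depend, among them stem cell factor and CXCL12. Such cells lie among far more numerous blood cells, of which the erythroid precursors are a large class. Erythroid cells open the genes of haemoglobin, haem synthesis and the red cell membrane skeleton under the transcription factors GATA1, KLF1, TAL1 and NFE2, and GATA factors bind DNA at the core letters AGATAA. Open regions far from gene starts are often enhancers and differ between cell types, while most promoters of widely used genes are open in many cell types.

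The promoter windows below show the letters under members at gene starts. Windows run for 300 bases, 250 before to 50 after the gene start, and come from RefSeq on GRCm38.p6, whose coordinates are those of mm10. Each is written 5′ to 3′ on the strand of its gene, with every match of AGATAA, on either strand, in capitals. Mylk3, Zpbp, Gstk1 and St6galnac3 are the members at gene starts with the strongest peaks that met a window; Hbb-bs and Kit were added after their values were seen, as a globin gene and as the receptor for stem cell factor. The windows are chr8:85380992-85381291 on the minus strand for Mylk3, chr11:11462370-11462669 minus for Zpbp, chr6:42245685-42245984 plus for Gstk1, chr3:153725084-153725383 minus for St6galnac3, chr7:103827879-103828178 minus for Hbb-bs and chr5:75574737-75575036 plus for Kit.
Mylk3: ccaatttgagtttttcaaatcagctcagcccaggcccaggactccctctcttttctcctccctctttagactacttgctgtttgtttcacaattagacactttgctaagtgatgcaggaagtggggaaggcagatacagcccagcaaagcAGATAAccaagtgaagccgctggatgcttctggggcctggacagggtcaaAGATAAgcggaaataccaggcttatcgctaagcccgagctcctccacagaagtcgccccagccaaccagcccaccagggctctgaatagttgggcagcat
Zpbp: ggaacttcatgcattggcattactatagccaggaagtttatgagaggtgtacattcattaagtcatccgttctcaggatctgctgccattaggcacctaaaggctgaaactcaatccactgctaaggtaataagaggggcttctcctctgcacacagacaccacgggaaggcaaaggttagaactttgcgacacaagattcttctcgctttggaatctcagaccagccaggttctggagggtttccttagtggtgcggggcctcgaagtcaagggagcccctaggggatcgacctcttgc
Gstk1: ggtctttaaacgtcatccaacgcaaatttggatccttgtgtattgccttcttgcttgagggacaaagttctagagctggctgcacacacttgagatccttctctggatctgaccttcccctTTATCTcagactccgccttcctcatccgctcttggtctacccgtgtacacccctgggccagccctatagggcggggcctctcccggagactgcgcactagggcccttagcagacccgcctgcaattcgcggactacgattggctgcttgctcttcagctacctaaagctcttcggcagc
St6galnac3: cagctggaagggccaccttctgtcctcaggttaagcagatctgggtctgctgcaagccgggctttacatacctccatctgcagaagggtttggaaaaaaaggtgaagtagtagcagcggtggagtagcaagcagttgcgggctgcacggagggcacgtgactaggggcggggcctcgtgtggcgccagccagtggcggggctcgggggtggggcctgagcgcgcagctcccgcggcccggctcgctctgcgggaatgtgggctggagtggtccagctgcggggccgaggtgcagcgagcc
Hbb-bs: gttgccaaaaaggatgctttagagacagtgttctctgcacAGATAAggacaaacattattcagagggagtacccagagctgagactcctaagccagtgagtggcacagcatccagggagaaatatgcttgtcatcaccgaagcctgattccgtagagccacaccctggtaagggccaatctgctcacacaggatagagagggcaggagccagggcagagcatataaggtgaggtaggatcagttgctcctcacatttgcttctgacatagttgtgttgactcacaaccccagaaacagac
Kit: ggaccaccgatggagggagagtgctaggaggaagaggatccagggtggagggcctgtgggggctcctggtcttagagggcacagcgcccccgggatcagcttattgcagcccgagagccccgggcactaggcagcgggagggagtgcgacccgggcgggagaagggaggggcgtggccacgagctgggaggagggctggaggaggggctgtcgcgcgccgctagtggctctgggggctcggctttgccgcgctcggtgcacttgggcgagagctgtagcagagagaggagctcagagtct

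Mylk3 held 2 such matches, Gstk1 and Hbb-bs 1 each, and Zpbp, St6galnac3 and Kit none in these windows. Among 94 windows under members (at least 150 bases shared with the region), 22 held AGATAA on either strand, or 23.4%. The share was 5.02% of the 8971 windows under regions open in all 10 libraries and 9.68% of all 21045 protein-coding windows. The windows under members also differed in base composition. Their median ratio of observed to expected CpG was 0.391, against 0.818 under regions open in all 10 libraries and 0.574 in all windows. Their median GC content of 58.2% lay between the 62.3% under regions open in all 10 libraries and the 56.7% of all windows. The 94 windows belong to 87 genes, so some share a gene, and a match is a description of letters and not a bound site.

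Of 20 motifs searched on both strands, several others stood at other shares under members. CCGGAAG, the ETS core, was in 5.32% of windows under members, 22.5% under regions open in all 10 libraries and 11.7% of all windows. GGGGCGGGG, the KLF and SP GC box, was in 17.0%, 24.8% and 15.5% of the same 3 sets. CACGTG, an E-box, was in 14.9%, 11.2% and 7.91%. The NF-kB site was in 3.19% of windows under members, which is 3 windows, and in 0.379% and 0.428% of the other sets. These sets differ in CpG content, and its part in the shares was not tested. The cAMP element TGACGTCA, the D-box TTATGTAA and the sites of NRF1, YY1, interferon factors, EBF and the CArG box were in none of the 94 windows. Across all windows these 7 motifs were in between 0.0950% (CArG box) and 3.38% (interferon element).

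The other 8 motifs, like the GC box, the NF-kB site and the 7 absent motifs, each differed by less than 5 percentage points from all windows. CCAAT, bound by NFY, was in 36.2% of windows under members and 38.5% of all windows. CATTCC, the TEAD site, was in 11.7% under members and 13.5% of all. TATAAA, the TATA box, was in 8.51% under members and 12.7% of all. TTGCNNCA, the CEBP site, was in 9.57% under members and 10.9% of all. The RUNX site TGTGGTT was in 5.32% under members and 4.74% of all, and the PU.1 site GAGGAAGT in 3.19% and 3.15%. The AP-1 site was in 4.26% under members and 7.04% of all, and the glucocorticoid element in 1.06% and 0.447%. Motifs can overlap one another.

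Sorted libraries held 39912 to 68273 peaks on the chromosomes used, and cultured libraries 48399 to 78470. Total read numbers are unknown, and the lowest fragment number at a summit was 3 to 5, so absence from a list does not show closed chromatin. Replicate 1 of each group was sequenced on flow cell AHY33MBCXX and the others on AC99CPACXX. Among the stromal markers, Kitl, Cxcl12, Lepr and Ebf1 had more summits in both Scf-GFP-positive libraries than in either Scf-GFP-negative one. At Ebf3 the groups met, with 3 and 4 summits in Scf-GFP-positive and 3 and 1 in Scf-GFP-negative libraries (with limma, adjusted p = 0.175). Kitl had 8 and 2 summits in its locus in Scf-GFP-positive and 1 and 0 in Scf-GFP-negative libraries (with limma, adjusted p = 0.0294), and Ebf1, a stromal regulator, 13 and 13 in Scf-GFP-positive and 2 and 2 in Scf-GFP-negative libraries (with limma, adjusted p = 7.51e-05), in lists trimmed to 39912 peaks.

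Members differed from regions open in all 10 libraries in their position. Positions relative to starts are given for 1284 members, since those on chromosome 18 were not analysed for this. Of the 1284, 99 had their centre within 1 kb of a protein-coding start, or 7.71%, against 67.4% of regions open in all 10 libraries. That is close to the 7.35% of all 195377 union regions outside chromosome 18. The share was 4.54% of the 4646 regions open in both Scf-GFP-positive libraries alone, 3.60% of the 3463 open in both Scf-GFP-negative libraries alone and 1.74% of the 6371 open in all cultured and no sorted libraries. The median distance to the nearest start was 21180 bp for members, 135 bp for regions open in all 10 libraries and 36406 bp for all union regions. Members made up 1.33% (99 of 7457) of the regions open in all sorted libraries within 1 kb of a start and 20.3% (1185 of 5839) of those farther away. From 1 kb outward the share hardly varied with distance, at 18.9% between 1 and 5 kb, 21.4% between 5 and 20 kb, 21.0% between 20 and 100 kb and 18.4% beyond 100 kb.

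The difference ran the same way in each sorted library. Of member peaks, 8.16%, 8.22%, 7.92% and 8.58% had their summit within 1 kb of a start in Scf-GFP-positive replicates 1 and 2 and Scf-GFP-negative replicates 1 and 2. Of the other peaks of those libraries, the shares were 25.0%, 18.9%, 23.1% and 27.2%. The mean was 8.22 ± 0.270% for member peaks and 23.5 ± 3.52% for other peaks (SD, n = 4), lower in 4 of 4 libraries by 10.7 to 18.6 percentage points (exact paired permutation test, two-sided, p = 0.13, the smallest that 4 libraries allow). The direction rests on what counts as open. When a region was open only where peaks covered at least 50% of it, 537 members remained and the difference turned to +9.51 percentage points.

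**Figure D1:**
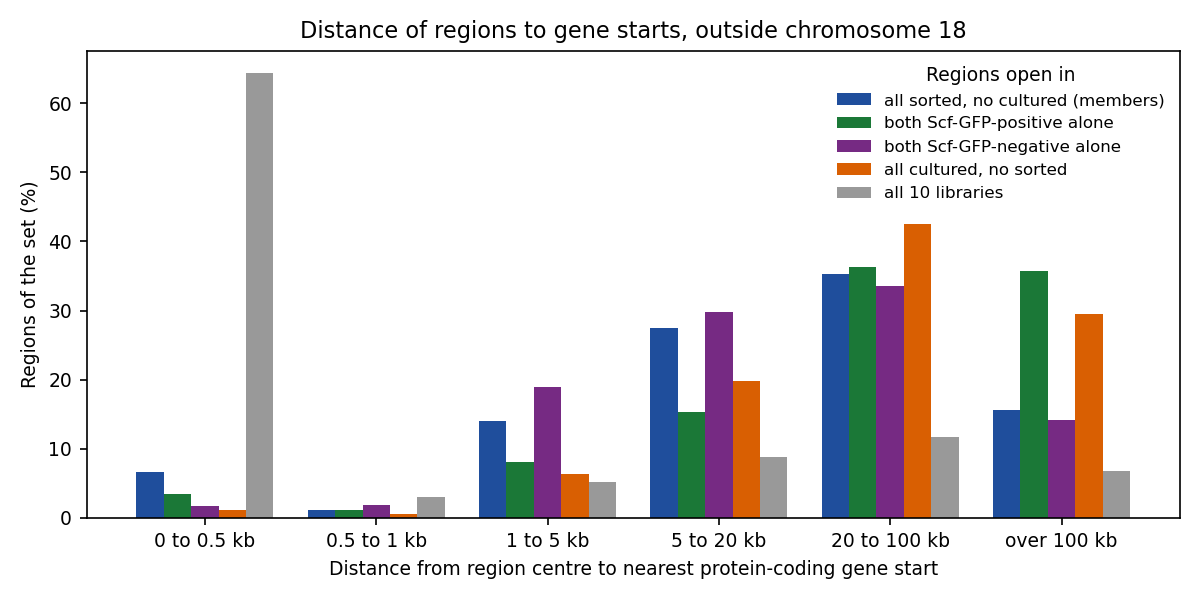
Share of regions (y axis, % of the set) by distance from the region centre to the nearest protein-coding gene start (x axis, kb) for members, at the left of each group of bars, and 4 other sets of regions outside chromosome 18. The bars of regions open in all 10 libraries stand at 64.4% within 0.5 kb, while members peak between 20 and 100 kb at 35.3%.

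Member regions had a median width of 920 bp (quartiles 705 and 1194 bp, range 296 to 4253 bp), against 1500 bp for regions open in all 10 libraries and 681 bp for regions open in all cultured and no sorted libraries. Together they covered 1336 kb. Of the 1284 members, 818 (63.7%) had their centre in the body of a protein-coding gene, close to the 61.0% of regions open in all 4 sorted libraries and the 60.5% of those open in all 10, and above the 54.1% of all union regions. Cultured peaks lay near many members, though the distance to them was not computed for other sets of regions. The nearest cultured peak lay at a median of 3112 bp, 1102 members (83.3%) had one within 10 kb and 288 within 1 kb. For 27 members the gap was at most 100 bp. Of the members, 224 (16.9%) lay within 10 kb of another member. The like share was 25.4% for regions open in all 10 libraries and 14.6% for those open in all cultured and no sorted libraries. It was 20.4% for regions open in both Scf-GFP-positive libraries alone and 25.8% for those open in both Scf-GFP-negative libraries alone. These sets differ in size. The members' share among regions open in all sorted libraries ran from 3.31% on chromosome X to 13.8% on chromosome 3.

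Within sorted stroma, member peaks ranked lower in Scf-GFP-positive libraries than in Scf-GFP-negative libraries. Peak strength was read as the percentile of the authors' −log10 p within lists of equal size, 39912 peaks per library, with 0 for a member whose peak fell below that list. That 0 was given to 208 and 367 members in Scf-GFP-positive replicates 1 and 2, and to 19 and 0 in the Scf-GFP-negative pair. The median percentile of members was 25.0 and 27.4 in Scf-GFP-positive replicates 1 and 2, while the Scf-GFP-negative replicates had 76.6 and 79.6. Over all 13652 regions open in the sorted libraries, the medians were 80.1 and 80.4 in Scf-GFP-positive and 80.5 and 81.1 in Scf-GFP-negative libraries. In 1117 members (84.4%) both Scf-GFP-positive percentiles lay below both Scf-GFP-negative ones, against 30.9% of all regions open in the sorted libraries. In 33 members (2.49%) both lay above, against 25.5%. Fragments at the summit, recovered from the authors' fold values, ran the same way, as the median member peak held 7 and 8 fragments in Scf-GFP-positive replicates 1 and 2 against 14 and 18 in the Scf-GFP-negative pair, while other peaks held 7 or 8 in all 4 libraries. In lists as deposited, the median member peak stood at percentiles 37.1 and 57.6 in Scf-GFP-positive replicates 1 and 2. It stood at 78.1 and 78.1 in the Scf-GFP-negative pair.

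The direction was the same on each flow cell. With 1 library per group, members were lower in Scf-GFP-positive stroma in 91.6% on AHY33MBCXX, against 52.2% of all regions open in the sorted libraries, and in 93.3% on AC99CPACXX, against 53.6%. In lists as deposited the share with both lower was 75.9%, against 18.6%. Percentiles of members agreed between the Scf-GFP-negative replicates, with a Spearman rho of 0.739 over 1323 members, and less so between the Scf-GFP-positive replicates, at 0.348. Over all regions open in the sorted libraries these were 0.824 and 0.910. The members are points within libraries and not replicates, so these correlations are descriptions.

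**Figure D2:**
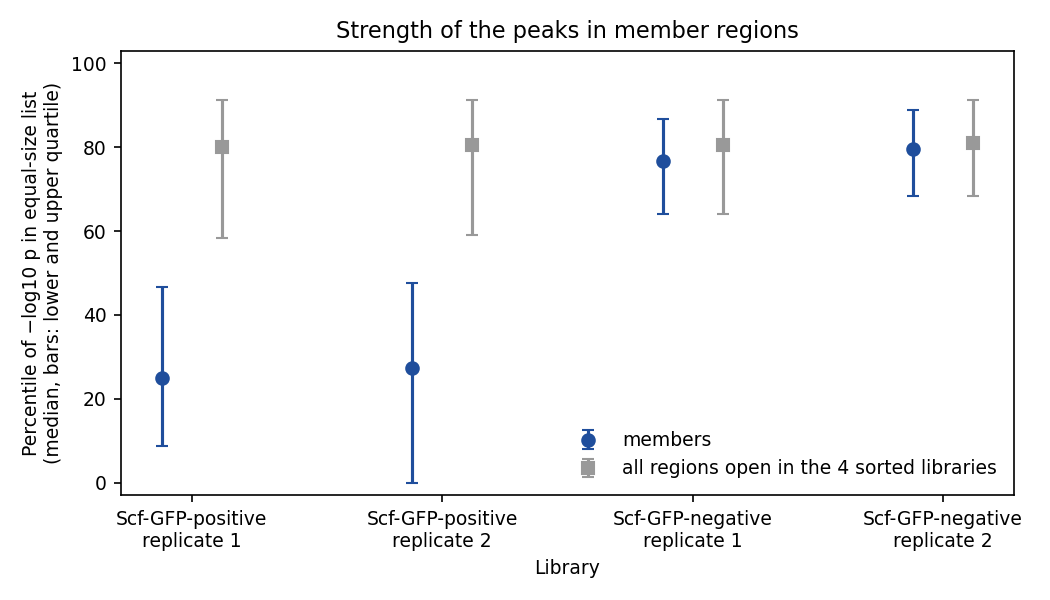
Percentile of −log10 p in lists of equal size (y axis) for members, circles at the left, and for all 13652 regions open in the 4 sorted libraries, squares, in each sorted library (x axis); points are medians and bars run between the lower and upper quartile. Members sit at medians of 25.0 and 27.4 in Scf-GFP-positive libraries and at 76.6 and 79.6 in Scf-GFP-negative libraries, while the squares stand near 80 throughout.

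A minority of members was strong in all 4 sorted libraries. Ranked by the lowest of their 4 percentiles, the strongest lay at the start of Mylk3, a myosin light chain kinase of heart muscle (mm10 chromosome 8, 85380134 to 85381508). Its summit held 31 and 33 fragments in Scf-GFP-positive replicates 1 and 2, against 32 and 54 in the Scf-GFP-negative pair. The groups overlapped at Mylk3 except for the high second Scf-GFP-negative library. Next came the start of Zpbp, which encodes a sperm protein that binds the egg coat (chromosome 11, 11461538 to 11462701), with 31 and 34 fragments in Scf-GFP-positive and 35 and 27 in Scf-GFP-negative libraries, again overlapping. The nearest cultured peak lay 59275 bp from Zpbp and 508 bp from Mylk3.

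Gstk1, a mitochondrial and peroxisomal glutathione transferase (start within chromosome 6, 42245642 to 42246352), ran the other way from most members. It had 43 and 34 fragments in Scf-GFP-positive libraries and 21 and 21 in Scf-GFP-negative libraries, so the groups did not overlap. St8sia4, which builds polysialic acid on cell surface proteins, had 27 and 28 fragments in Scf-GFP-positive and 23 and 20 in Scf-GFP-negative libraries, again apart. St6galnac3, which sialylates O-linked sugars and glycolipids, had 25 and 15 in Scf-GFP-positive and 24 and 33 in Scf-GFP-negative libraries and overlapped.

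Most other strong members lay away from starts. A member in the body of Cldn10, a tight junction claudin, had 27 and 21 fragments in Scf-GFP-positive and 21 and 34 in Scf-GFP-negative libraries. A member inside St3gal2, another sialyltransferase gene, had 33 and 24 in Scf-GFP-positive and 17 and 26 in Scf-GFP-negative libraries. Neither pair of groups was separate. At -55432 bp from the start of Cd47, that is upstream of it, lay a further member. Cd47 encodes the cell surface signal that restrains macrophages, and this summit held 18 and 16 fragments in Scf-GFP-positive and 33 and 60 in Scf-GFP-negative libraries, with no overlap. The remaining members of the strongest 15 lay nearest to Cdkl1, Phospho1 (a phosphatase of bone mineralisation), Gramd4, Asb17, Sptb, Gramd1c and Tbc1d7, with 13 to 22 fragments in Scf-GFP-positive and 25 to 47 in Scf-GFP-negative libraries.

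**Figure D3:**
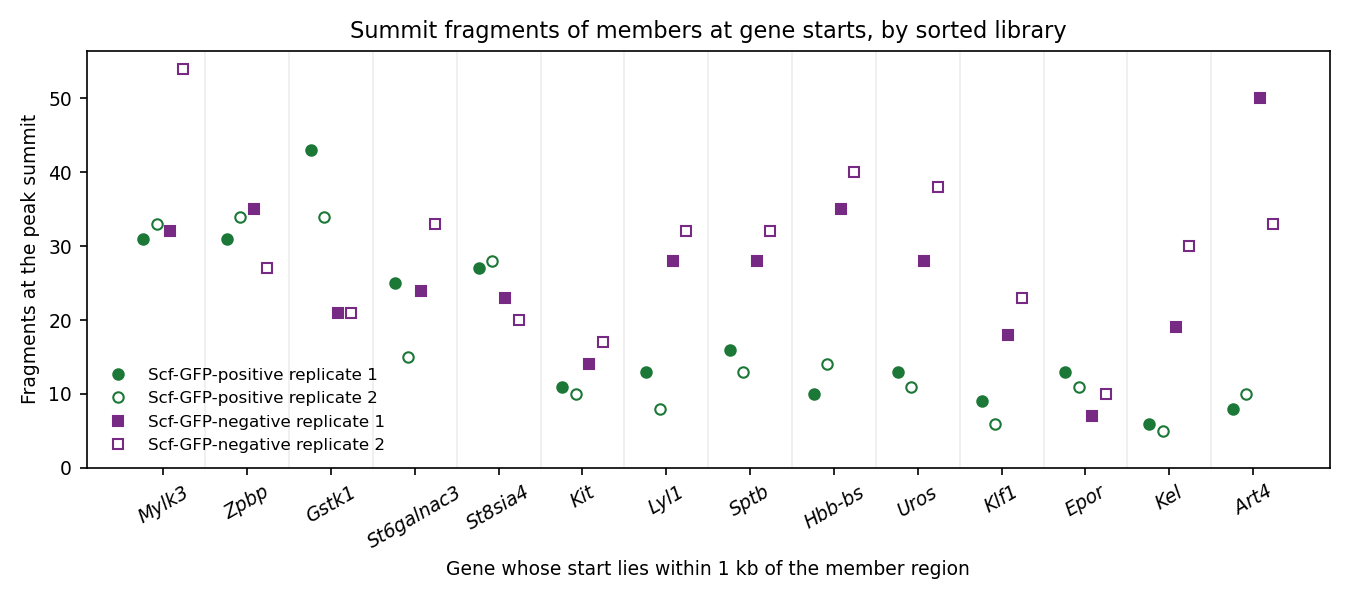
Fragments at the peak summit (y axis, linear scale) of 14 members whose centre lies within 1 kb of the named gene start (x axis), with 1 point per sorted library: circles for Scf-GFP-positive and squares for Scf-GFP-negative, filled for replicate 1 and open for replicate 2. Gstk1 and St8sia4 are higher in both Scf-GFP-positive libraries, while Hbb-bs, Lyl1, Sptb, Uros, Klf1, Kel and Art4 are higher in both Scf-GFP-negative libraries.

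Globin, red cell membrane and erythroid regulator genes were among the genes whose loci held members. A locus runs from 10 kb before a gene to 10 kb after it, and 1140 of 21631 protein-coding loci (5.27%) held at least 1 member. On the list of erythroid and megakaryocyte genes, 13 of 24 loci did (54.2%). Of 43 regions open in all sorted libraries within those loci, 19 (44.2%) were members, against 8.45% over all protein-coding loci. That share was as high on the chondrocyte list, at 4 of 9 regions (44.4%), and was 2 of 7 (28.6%) on the myeloid list. The remaining lists of the main set stood between 0 and 23.1%. The lists were chosen with earlier results of these data known, so the count is a description. Among the 13 loci were those of the beta globins Hbb-bs and Hbb-bt, the membrane skeleton genes Sptb, Ank1 and Slc4a1, the erythropoietin receptor Epor, the transcription factors Klf1, Nfe2 and Gfi1b, the GATA cofactor Zfpm1, and Trim10 and Tspan33. No member lay in the loci of Pf4, Gp9, Gp1bb and Itga2b, which are megakaryocyte genes, nor in those of Gata1, Alas2, Hba-a1, Hba-a2, Rhd and Tfrc. The count of 13 was 7 with peaks of −log10 q of at least 5 and 3 where openness needed 50% of the region; leaving out any 1 library gave 12 to 17.

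At the start of Hbb-bs (chromosome 7, 103827609 to 103828684; start window printed above) the summit held 10 and 14 fragments in Scf-GFP-positive replicates 1 and 2, against 35 and 40 in the Scf-GFP-negative pair. The groups did not overlap. The widest of all members, 4253 bp, lay beside the neighbouring copy Hbb-bt, with 6 and 6 fragments in Scf-GFP-positive and 23 and 17 in Scf-GFP-negative libraries; reads of these near-identical copies could be split, so which copy they belong to is uncertain. At Klf1, the master activator of adult globin, the member over the start had 9 and 6 fragments in Scf-GFP-positive and 18 and 23 in Scf-GFP-negative libraries. All of these were lower in both Scf-GFP-positive than in both Scf-GFP-negative libraries. The Hbb-bs start still stood at percentiles 60.9 and 80.5 of the Scf-GFP-positive lists as deposited. The Epor start was the exception, with 13 and 11 fragments in Scf-GFP-positive and 7 and 10 in Scf-GFP-negative libraries.

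Sptb, the beta chain of the spectrin skeleton under the red cell membrane, held 3 members. The one at its start (chromosome 12, 76709225 to 76710976) had 16 and 13 fragments in Scf-GFP-positive and 28 and 32 in Scf-GFP-negative libraries. Zfpm1 held 2, the stronger with 13 and 10 fragments in Scf-GFP-positive and 35 and 33 in Scf-GFP-negative libraries. At Trim10, an erythroid ubiquitin ligase, the member at the start had 6 and 11 fragments in Scf-GFP-positive and 28 and 34 in Scf-GFP-negative libraries. No pair of groups overlapped at these 3 regions.

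Other red cell genes at member starts were picked after their values were seen. Among 25 genes of the red cell membrane and blood groups, 9 loci held a member (36.0%), and among 9 haem synthesis enzymes 3 did (33.3%), those of Uros, Fech and Alad, against 5.27% of all loci. At the Uros start (chromosome 7, 133702005 to 133702885) the summit held 13 and 11 fragments in Scf-GFP-positive and 28 and 38 in Scf-GFP-negative libraries. Kel, the Kell blood group protein, had 6 and 5 fragments at its start in Scf-GFP-positive and 19 and 30 in Scf-GFP-negative libraries. Art4, the carrier of the Dombrock blood group, had 8 and 10 fragments at its start in Scf-GFP-positive and 50 and 33 in Scf-GFP-negative libraries. The groups were apart at all 3. Tspo2 and Tfr2, genes of erythroid cholesterol and iron handling, also had members at their starts. Tspo2 had 11 and 9 fragments in Scf-GFP-positive and 20 and 18 in Scf-GFP-negative libraries, with a cultured peak 49 bp away. Tfr2 had 11 and 6 in Scf-GFP-positive and 11 and 16 in Scf-GFP-negative libraries, so its groups met.

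**Figure D4:**
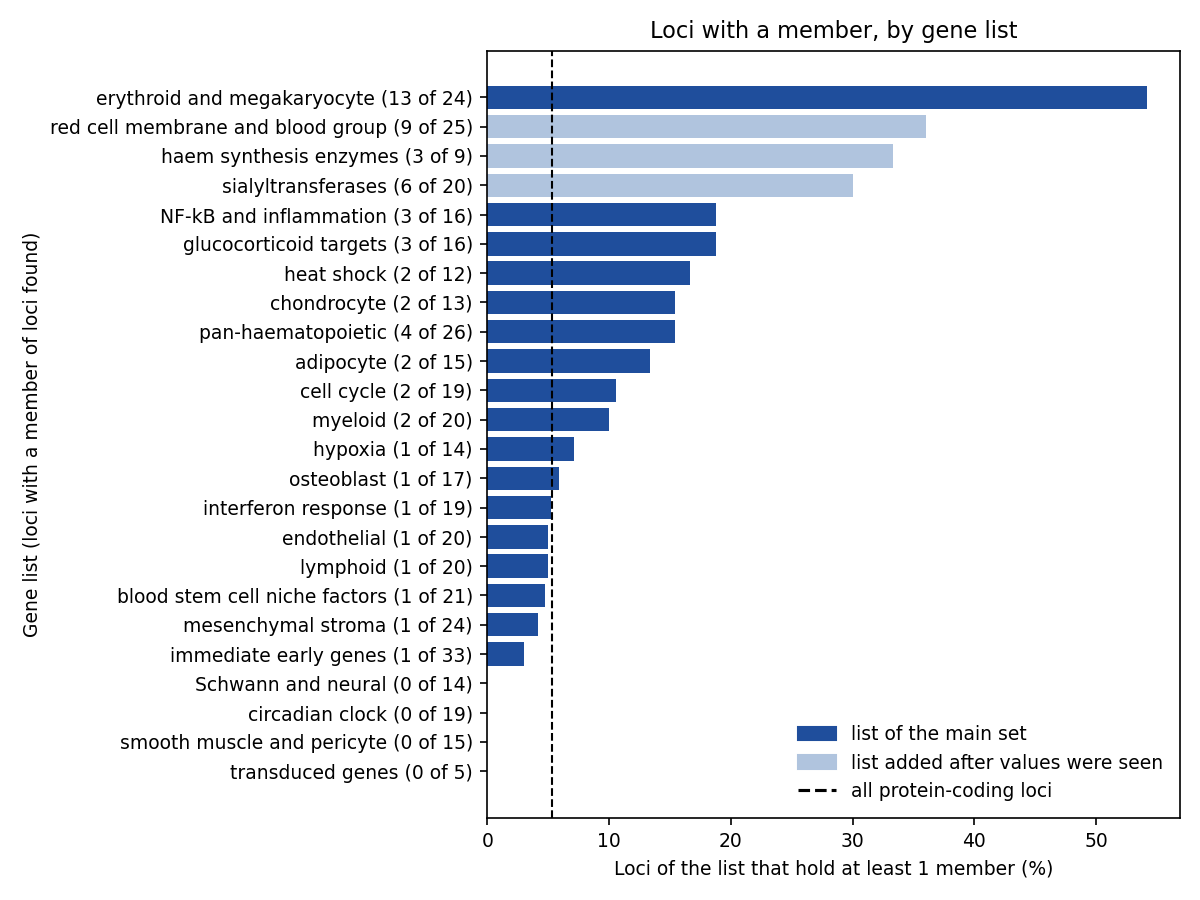
Share of the loci of each gene list that hold at least 1 member (x axis, %), with counts beside each list (y axis); dark bars are the lists of the main set, pale bars lists added after values were seen, and the dashed line marks the 5.27% of all protein-coding loci. The erythroid and megakaryocyte list reaches 54.2%, and no other list of the main set passes 18.8%.

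On the pan-haematopoietic list 4 of 26 loci held a member (15.4%, against 5.27% of all loci), those of Ikzf1, Runx1, Lyl1 and Lmo2. Lists of genes that answer handling or stress reached 18.8%. Of 37 regions open in all sorted libraries in the pan-haematopoietic loci 8 (21.6%) were members, against 8.45% over all loci. Ikzf1, which encodes the lymphoid and erythroid regulator Ikaros, held 3. Its strongest member by the lowest percentile, near the gene start, had 9 and 9 fragments in Scf-GFP-positive and 22 and 20 in Scf-GFP-negative libraries. Lyl1, a basic helix-loop-helix factor of blood stem cells, had 13 and 8 fragments at its start in Scf-GFP-positive and 28 and 32 in Scf-GFP-negative libraries. Runx1, a regulator of definitive blood formation, held 2 members, the stronger with 15 and 8 fragments in Scf-GFP-positive and 27 and 32 in Scf-GFP-negative libraries. At each of these 3 the groups were apart. Kit, the receptor for stem cell factor on blood stem cells, mast cells and erythroid precursors, was on no list. It held 2 members, and the one over its start (chromosome 5, 75574346 to 75576024) had 11 and 10 fragments in Scf-GFP-positive and 14 and 17 in Scf-GFP-negative libraries, 28783 bp from the nearest cultured peak.

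Erythroid and pan-haematopoietic loci held fewer peak summits in Scf-GFP-positive than in Scf-GFP-negative stroma, while the sums over myeloid loci were slightly higher in Scf-GFP-positive stroma and those over lymphoid loci overlapped. The sums here leave out summits in members and use lists of equal size. Over the 24 erythroid and megakaryocyte loci they were 40 and 42 in Scf-GFP-positive and 128 and 152 in Scf-GFP-negative libraries, and 28, 27 and 33 in rMSC and 32, 24 and 33 in control cultures. Over the 26 pan-haematopoietic loci they were 76 and 79 in Scf-GFP-positive and 122 and 136 in Scf-GFP-negative libraries, against 39 to 51 in rMSC and 43 to 47 in control cultures. Over 20 myeloid loci the sums were 22 and 25 in Scf-GFP-positive and 18 and 20 in Scf-GFP-negative libraries, 15 to 17 in rMSC and 17 to 19 in control cultures. Over 20 lymphoid loci they were 41 and 43 in Scf-GFP-positive and 39 and 53 in Scf-GFP-negative libraries, which overlapped, 30 to 33 in rMSC and 23 to 32 in control cultures. With members included, the number of erythroid and megakaryocyte loci with no summit was 3 in Scf-GFP-positive, 0 in Scf-GFP-negative, 6 in rMSC and 9 in control cultures. The loci of Ptprc and Gata1 ran the same way between the sorted groups as the erythroid and pan-haematopoietic sums. Ptprc, which encodes CD45, had 0 and 0 summits in Scf-GFP-positive, 7 and 5 in Scf-GFP-negative and 2 in every cultured library (limma adjusted p = 1.48e-05 between the sorted groups, among loci kept by their mean in culture). Gata1 had 0 and 0 in Scf-GFP-positive, 1 and 2 in Scf-GFP-negative, 0, 0 and 1 in rMSC and none in control cultures. CD45 and Ter119 were gates of the sort, and the part of blood cells in the members was not tested.

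**Figure D5:**
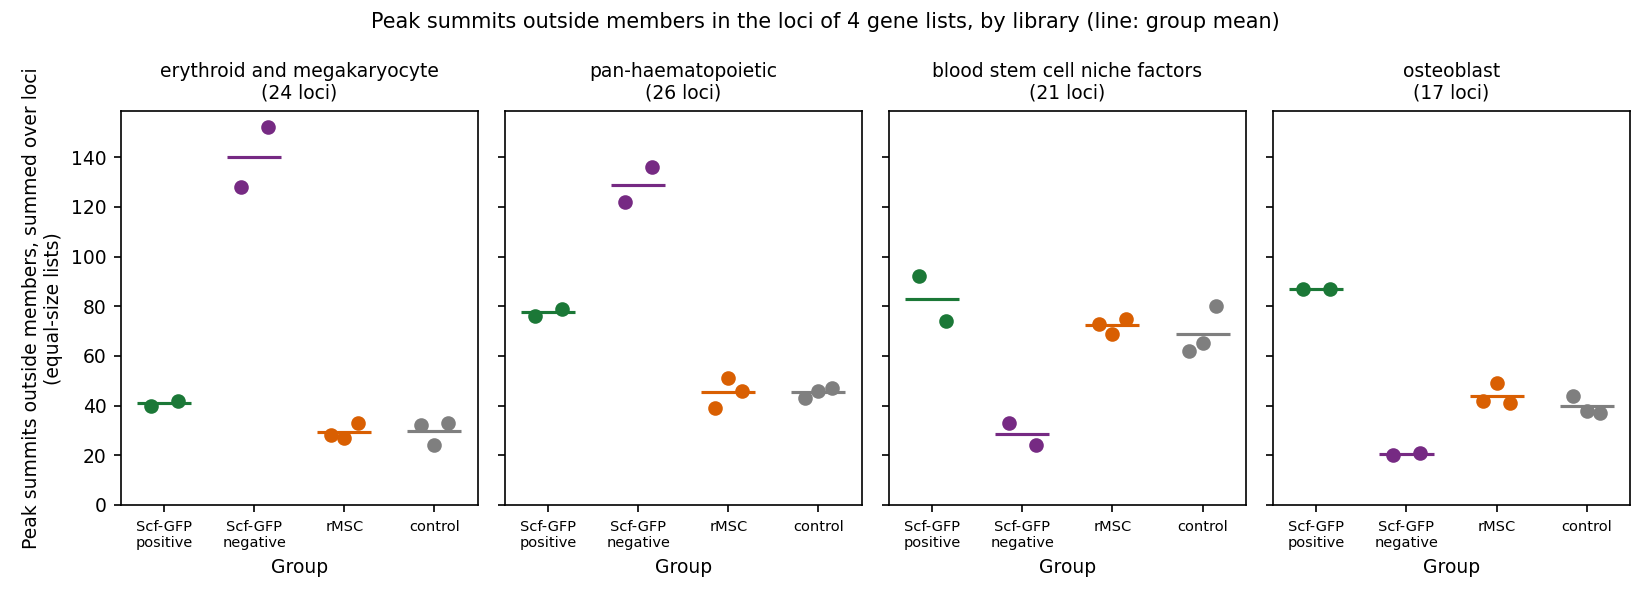
Peak summits outside members, summed over the loci of a gene list in each library (y axis, lists of equal size) by group (x axis), with 1 point per library and a line at the group mean, for 4 lists. Erythroid and pan-haematopoietic sums are highest in Scf-GFP-negative stroma (128 and 152, and 122 and 136), while sums for niche factors (33 and 24) and osteoblast genes (20 and 21) are lowest there.

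Stromal lists held members in shares of their loci near the 5.27% of all loci, at 4.17% for mesenchymal stroma, 4.76% for niche factors and 5.88% for osteoblast genes. Few regions of these loci were open in all sorted libraries, and of these 3 of 13 (23.1%), 1 of 8 (12.5%) and 1 of 10 (10.0%) were members, against 8.45% over all loci. Of 24 mesenchymal stroma loci 1 held members, Zeb2, a repressor of epithelial genes, with 3 members. The strongest of these had 8 and 7 fragments in Scf-GFP-positive and 16 and 10 in Scf-GFP-negative libraries. Of 21 loci of blood stem cell niche factors 1 did, Angpt1, the ligand of Tie2, with 6 and 9 fragments in Scf-GFP-positive and 23 and 24 in Scf-GFP-negative libraries. Of 17 osteoblast loci 1 did, Runx2, the osteoblast master regulator, with 12 and 7 fragments in Scf-GFP-positive and 14 and 23 in Scf-GFP-negative libraries. None of the loci of Lepr, Cxcl12, Kitl, Ebf1 and Ebf3, which mark CXCL12-abundant reticular cells, held a member. Their summits in lists of equal size ran from 2 to 13 in Scf-GFP-positive, 0 to 3 in Scf-GFP-negative, 0 to 8 in rMSC and 0 to 19 in control cultures. The chondrocyte list had 2 of 13 loci, Sox5 and Sox6 with 2 members each, of which Sox6 is also an erythroid regulator.

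Genes that answer cell handling or stress held members at shares between 0 and 3 of 16 loci. The immediate early list had 1 of 33 loci, Junb, and the circadian clock list 0 of 19. The Junb member had 7 and 8 fragments in Scf-GFP-positive and 13 and 31 in Scf-GFP-negative libraries, and the nearest start was that of Prdx2, a peroxiredoxin abundant in red cells. Fos, Per1 and Fkbp5 held none. Their loci differed between the sorted groups even so. Fos, an AP-1 subunit, had 12 and 11 summits in Scf-GFP-positive and 5 and 5 in Scf-GFP-negative libraries (with limma, adjusted p = 0.00293). Per1, a clock repressor, had 7 and 6 in Scf-GFP-positive and 10 and 13 in Scf-GFP-negative libraries (with limma, adjusted p = 0.0374), and Fkbp5, a glucocorticoid target, 5 and 3 in Scf-GFP-positive and 2 and 1 in Scf-GFP-negative libraries (with limma, adjusted p = 0.0207). Glucocorticoid targets (Mt1, Tsc22d3 and Zbtb16) and NF-kB genes (Nfkb1, Il1b and Icam1) had 3 of 16 loci each, heat shock genes (Hspa5 and Hspd1) 2 of 12, hypoxia genes (Pfkfb4) 1 of 14 and interferon genes (B2m) 1 of 19. Cell cycle genes (Mki67 and Ccne1) had 2 of 19, and the Mki67 member, upstream of the gene for the proliferation antigen Ki-67, had 14 and 15 fragments in Scf-GFP-positive and 41 and 49 in Scf-GFP-negative libraries. Myeloid genes (Cebpe and Fcgr3) had 2 of 20, lymphoid (Bcl11a) 1 of 20, endothelial (Vwf) 1 of 20 and adipocyte genes (Cd36 and Adipor2) 2 of 15. Smooth muscle (15 loci), Schwann and neural (14 loci) and the 5 transduced genes had none.

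Sialyltransferases stood out among the strongest members and were counted for that reason, after their values were seen. Of 20 such genes, 6 held a member (30.0%, against 5.27% of all loci), and 11 of 30 regions open in all sorted libraries in their loci (36.7%, against 8.45%) were members. St3gal2 and St3gal6 held 3 each, St6galnac3 2, and St8sia4, St3gal1 and St3gal4 1 each. Outside members, St3gal6 had 10 and 9 summits in Scf-GFP-positive, 5 and 6 in Scf-GFP-negative, 1, 1 and 0 in rMSC and none in control cultures.

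A few loci held several members. Gse1, a subunit of a histone deacetylase complex, held 7 of the 17 regions of its locus that were open in all sorted libraries. Mgll, which degrades the endocannabinoid 2-arachidonoylglycerol, held 5 of 7. The semaphorin Sema4d, Nol4l, the B cell adaptor Dapp1, the lipid raft protein Rftn1, the receptor Notch2 and Fry held 4 each, and Cldn10 and St3gal2 3 each. Of the 1140 host loci, 957 held 1 member and 152 held 2.

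A microRNA of blood cells, miR-142, lay among members and is shown for that reason, after its values were seen. Of 1005 mouse hairpins in the RefSeq table, 3 lay within 2 kb of a member, those of Mir142, its antisense Mir142b, and Mir6919. The mature sequences of Mir142 follow (chr11:87756867-87756887 and chr11:87756903-87756925, plus strand), with the seed, bases 2 to 8, in capitals.
mmu-miR-142a-5p: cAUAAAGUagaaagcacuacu
mmu-miR-142a-3p: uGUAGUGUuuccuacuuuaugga

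Mir142 had 3 members around it. The region over the hairpin (chromosome 11, 87756264 to 87757373) had 7 and 7 fragments in Scf-GFP-positive and 10 and 10 in Scf-GFP-negative libraries. The region on its left had 11 and 12 fragments in Scf-GFP-positive and 25 and 15 in Scf-GFP-negative libraries, and that on its right 8 and 6 in Scf-GFP-positive and 11 and 14 in Scf-GFP-negative libraries. All 3 were lower in both Scf-GFP-positive libraries. Near Mir6919 the member had 7 and 5 fragments in Scf-GFP-positive and 9 and 18 in Scf-GFP-negative libraries.

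Most host loci had peaks elsewhere in culture. Outside member regions, a host locus held a median of 3 summits in each Scf-GFP-positive library, 4 and 5 in Scf-GFP-negative libraries and 2 in each cultured library. In single cultured libraries, 10.3 to 11.3% of host loci had no summit outside members, against 30.1 to 30.8% of all protein-coding loci. These sets are unlike, since every host locus holds a region open in all sorted libraries and only 12197 of all 21631 loci do. Of the 1140 host loci, 923 (81.0%) had other summits in all 6 cultured libraries and 60 (5.26%) had none in any. Ikzf1 was among these 60.

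Summits outside members were then compared between the sorted groups, a contrast the rule did not use. Locus counts from lists of equal size were fitted with limma on log2(summits + 0.5). P-values were adjusted over all 9009 loci that averaged 2 or more summits per library, of which 861 host members. In Scf-GFP-positive against Scf-GFP-negative stroma, 259 host loci (30.1%) had fewer summits (limma, adjusted p under 0.05), against 16.9% of all loci tested. More summits were called at 42 host loci (4.88%), against 13.7% of all. The median log2 change was -0.61 at host loci and -0.21 over all loci. A locus can reach that mean through the group in which it is high, so the fit was repeated on the 8725 loci that averaged 2 or more summits in the 6 cultured libraries, which neither sorted group decides. There 192 of 713 host loci (26.9%) had fewer summits, against 14.6% of all, and 41 (5.75%) more, against 14.9% of all. The medians were -0.53 at host loci and -0.14 over all. The count of 259 was 152 without Scf-GFP-negative replicate 2 and 170 without Scf-GFP-positive replicate 1, and 57 when only the 2 compared groups were fitted, which also took the 42 to 12. It was 142 with a mean of at least 4 summits, 96 with all deposited peaks and 118 with no flank.

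Blood regulators were among the host loci with fewer summits. Zfpm1 had 5 and 4 summits outside its members in Scf-GFP-positive and 29 and 34 in Scf-GFP-negative libraries, a log2 change of -2.68 ± 0.37 (SE; limma adjusted p = 0.00225, n = 2 and 2), with 1 to 3 in every cultured library. Klf1 fell by 1.00 on the log2 scale, with 3 and 3 summits in Scf-GFP-positive and 6 and 7 in Scf-GFP-negative libraries (with limma, adjusted p = 0.000815). Neither pair of groups overlapped. Ikzf1, Mki67, Sptb and Uros averaged under 2 summits in culture and reached the mean through the sorted libraries, so their values are a description with no test. Ikzf1 had 0 and 0 in Scf-GFP-positive, 9 and 16 in Scf-GFP-negative and none in cultured libraries. Mki67 had 1 and 1 summits in Scf-GFP-positive and 6 and 13 in Scf-GFP-negative libraries. Sptb had 4 and 3 in Scf-GFP-positive and 8 and 9 in Scf-GFP-negative libraries, and Uros 3 and 2 in Scf-GFP-positive and 6 and 8 in Scf-GFP-negative libraries. Of 7 erythroid and megakaryocyte loci kept by their mean in culture, 3 fell and 0 rose, with a median log2 change of -0.996. At an unadjusted p under 0.05 these were 4 and 0. Of 9 pan-haematopoietic loci 3 fell and 0 rose (3 and 0 at an unadjusted p under 0.05), with a median of -0.51. Of all 8725 loci in that fit, 14.6% fell and 14.9% rose. Of 6 lymphoid loci 0 fell and 3 rose. Of 8 cell cycle loci 5 fell and 0 rose, and of 10 heat shock loci 3 fell and 0 rose. The host locus Runx1 was not called, with 19 and 22 summits in Scf-GFP-positive and 18 and 16 in Scf-GFP-negative libraries (log2 change 0.26, limma adjusted p = 0.267). With all deposited peaks the call at Zfpm1 was lost (adjusted p = 0.153).

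Not all host loci with fewer summits were of blood genes. Sox5, a chondrocyte regulator, had 4 and 3 summits in Scf-GFP-positive and 34 and 18 in Scf-GFP-negative libraries (log2 change -2.67 ± 0.33, limma adjusted p = 0.00126). Megf11, an adhesion receptor of neurons, had 0 and 1 in Scf-GFP-positive and 9 and 8 in Scf-GFP-negative libraries and also reached the mean through Scf-GFP-negative stroma, so it has no test. Slc25a21, a mitochondrial carrier, had 0 and 0 in Scf-GFP-positive, 6 and 5 in Scf-GFP-negative and 4 to 9 in cultured libraries (limma adjusted p = 0.000128). The groups were apart at each. Sox5 and Slc25a21 were not called with all deposited peaks (adjusted p = 0.0663 and 0.0885).

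Secreted enzymes and adhesion or polarity genes were among the host loci with more summits in Scf-GFP-positive stroma. Pappa, a protease of insulin-like growth factor binding proteins, had 13 and 11 summits outside its member in Scf-GFP-positive and 0 and 1 in Scf-GFP-negative libraries (log2 change 3.85 ± 0.65, limma adjusted p = 0.00493). Pcsk6, a proprotein convertase, had 7 and 4 in Scf-GFP-positive and 0 and 0 in Scf-GFP-negative libraries (with limma, adjusted p = 0.000505). Hsd11b1, which regenerates active glucocorticoid, had 4 and 4 in Scf-GFP-positive and 0 and 0 in Scf-GFP-negative libraries (with limma, adjusted p = 0.00161). Pard6g, a polarity protein, had 10 and 10 in Scf-GFP-positive and 1 and 2 in Scf-GFP-negative libraries (log2 change 2.44 ± 0.34, limma adjusted p = 0.00226). Sdk2, an adhesion protein, had 14 and 13 in Scf-GFP-positive and 0 and 4 in Scf-GFP-negative libraries (with limma, adjusted p = 0.0268), and lost its call without either Scf-GFP-positive library (adjusted p = 0.0988 and 0.0893). The groups did not overlap at these 5 loci, and their p-values are from the fit on loci kept by their mean in culture. Pappa, Pard6g, Sox5 and Sdk2 were not called when the 2 groups were fitted alone (limma adjusted p = 0.0999, 0.0614, 0.0830 and 0.267). Runx2 rose by 2.06 (limma adjusted p = 0.00658 in that fit), with 16 and 14 in Scf-GFP-positive and 2 and 5 in Scf-GFP-negative libraries. Among the lists, 10 of 13 niche factor loci and 5 of 7 osteoblast loci kept by their mean in culture rose (limma, adjusted p under 0.05), with median log2 changes of 1.95 and 2.32. Of all 8725 loci in that fit, 14.9% rose. Other lists rose as well, with 6 of 9 smooth muscle and pericyte, 7 of 18 mesenchymal stroma and 3 of 6 lymphoid loci, and 0 falling on each. Of 7 chondrocyte loci 3 rose and 1 fell, and of 10 adipocyte loci 4 rose and 2 fell.

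In culture, rMSC differed from control at few host loci. The comparison asks whether the 5 transduced genes altered chromatin around the members, which themselves had no cultured peak. In rMSC against control cultures 10 host loci (1.16%) had more summits and 6 (0.697%) fewer, against 1.34% and 1.02% of all 9009 loci (limma, adjusted p under 0.05; 183 host loci had an unadjusted p under 0.05). These counts moved with single libraries. The 10 was 24 and 23 without Scf-GFP-negative replicates 1 and 2, 2 without rMSC replicate 1 or 2, and 3, 5 and 3 without control replicates 1, 2 and 3. The 6 was 14 without either Scf-GFP-negative library and 3 without control replicate 1. Among the 9592 loci kept by their mean in the sorted libraries, 13 host loci of 975 had more summits (1.33%, against 1.42% of all) and 9 fewer (0.923%, against 1.24% of all). Replicate 1 of every group shares a flow cell. With the replicate number as a block the 10 became 0 and the 6 became 2, and with the flow cell as a term they were 3 and 5. Other settings took the 10 to between 2 and 32 and the 6 to between 3 and 18.

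Tiam1, an activator of the small GTPase Rac, had 0, 0 and 0 summits outside its members in rMSC and 9, 6 and 8 in control cultures (limma adjusted p = 0.00153), and 3 to 10 in sorted libraries. Xylt1, which starts glycosaminoglycan chains, had none in rMSC and 9, 5 and 11 in control cultures (limma adjusted p = 0.00210). Pcdh7, a protocadherin, had 1, 0 and 1 in rMSC and 10, 11 and 9 in control cultures (log2 change -3.33 ± 0.40, limma adjusted p = 0.0112; 0.0508 without control replicate 1). Fry, a regulator of cell shape, rose by 2.02 ± 0.24, with 7, 5 and 5 summits in rMSC and 1, 1 and 1 in control cultures (limma adjusted p = 0.0101). The groups did not overlap at these 4 loci. With the replicate number as a block Fry and Pcdh7 were not called (limma adjusted p = 0.0582 each), and with the flow cell as a term they were (limma adjusted p = 0.0207 and 0.0256). Dock9, an activator of the GTPase Cdc42, had 15, 15 and 9 in rMSC and 4, 2 and 3 in control cultures (log2 change 1.95 ± 0.26, limma adjusted p = 0.0176; 0.0599, 0.0636 and 0.0642 without rMSC replicate 1, rMSC replicate 2 and control replicate 3). Dock9 was not called with the replicate block (limma adjusted p = 0.0597) and was with the flow cell as a term (limma adjusted p = 0.0256). With all deposited peaks, Xylt1, Pcdh7 and Dock9 were not called (limma adjusted p = 0.0995, 0.100 and 0.114), nor was Dock9 with equal numbers of peaks per chromosome (limma adjusted p = 0.0702). Calls at Tspoap1, Stx11, Elmo3, Vrk2 and Atxn7l1 held in 4 of 18, 6 of 20, 10 of 19, 12 of 20 and 11 of 21 other settings. Limma called 0 of the 9 erythroid and megakaryocyte loci and 0 of the 18 pan-haematopoietic loci tested; at an unadjusted p under 0.05 these were 0 and 4.

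At the edge of the rule, a further 295 regions were open in all sorted libraries and in 1 cultured library, with a median width of 918 bp, and the cultured peak stood at a median percentile between 11.9 and 33.6 of its own list. Their lowest sorted percentile had a median of 36.6, against 29.8 for members and 79.6 for regions open in all 10 libraries. A further 2099 regions were open in 3 sorted libraries and no cultured one, of which 1240 were missing from Scf-GFP-positive replicate 1 alone. Leaving out that library gave 2572 members in place of 1323, while leaving out any other single library gave 1337 to 1888. A stricter peak threshold, −log10 q of at least 5, gave 699.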

How the data were processed

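ATAC-seq was made from 10 libraries of mouse bone marrow stroma, with transposition for 30 min at 37 °C, 13 or 17 PCR cycles and 100 bp reads per the labels. BWA, MACS2 and the build mm10 were used, per the submitters' processing notes, and tool versions and settings were not given in the sources used here. For each library 1 peak list was deposited. The lists give per peak an integer score, a fold ratio over background, and a −log10 p and −log10 q, all as the authors' peak caller wrote them; the score was 10 times −log10 q in all 10 lists. No read totals are given, so depth is unknown and no counting interval was computed.

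Peaks on chromosome Y (17 to 114 per list) were left out. Fragments at a summit were recovered from the authors' fold, assuming 1 constant background per library; at least 99.98% of values were whole within 0.01. Percentiles ranked −log10 p within a list. Locus counts used the strongest 39912 peaks of each list, 21631 RefSeq protein-coding genes with 10 kb on either side, and limma 3.58.1 (R 4.3.3) on log2(summits + 0.5) over all 10 libraries with 4 groups, for loci averaging 2 or more summits, with Benjamini-Hochberg adjustment and a threshold of 0.05. Summits in members were left out. Gene starts were those of 17274 genes in the RefSeq promoter table, GRCm38.p6. Python 3.11.15 with pandas 2.3.3, numpy 2.4.6, scipy 1.17.1 and matplotlib 3.10.9 did the rest. The scripts were tested on simulated data.

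Samples were grouped by GEO's labels. Members and lists were chosen with earlier results of these data known. Named were the 15 members with the highest lowest percentile and the first 10 at gene starts, up to 4 genes per list, the 10 loci with most members, up to 5 host loci per direction and comparison that passed the test without overlap, and 10 marker genes whatever their values; other genes were chosen after their values were seen, as were the lists of haem synthesis, red cell membrane and sialyltransferase genes. Some genes of the lists are not reported here. Alternatives changed the peak threshold, list size, meaning of open, merging distance, start distance, flank, filter, pseudocount, libraries and block; the flow cell as a term and a filter on the mean in the groups not compared were chosen after seeing the data.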

Additional observations from a re-analysis of the deposited data

How the results depend on the processing

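The rule was applied anew in each setting, and with 1 library left out it gave 1337 to 2572 members in place of 1323. It gave 537 where openness needed 50% of the region. With the libraries of flow cell AHY33MBCXX and AC99CPACXX alone it gave 3227 and 3635, and 699 with −log10 q of at least 5. Erythroid and megakaryocyte loci with a member numbered 3 and 7 under the first and last of these, 10 to 18 under the others, and 12 to 17 with 1 library left out. The difference in peaks near gene starts turned to 9.51 percentage points where openness needed 50% of the region, and lay between -19.6 and -12.8 under the other 21 alternatives.

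Between the sorted groups, host loci with fewer summits numbered 142 with a mean of at least 4 summits, 96 with all deposited peaks, 118 with no flank, 57 with the 2 groups alone and 152 to 250 with 1 library left out. Host loci with more summits numbered 12 with the 2 groups alone and 30 to 46 with 1 library left out. All loci called, 2763 in the main setting, numbered 1149, 1284 and 934 with the higher mean, no flank and the 2 groups alone, and 1862 to 2664 with 1 library left out.

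For rMSC against control cultures, host loci with more summits numbered 20 with no filter, 2 with all deposited peaks, 3 with equal peaks per chromosome, 16 with summits in members included and 32 with the 2 groups alone, and 2 to 24 with 1 library left out. Host loci with fewer summits numbered 15 with the higher mean, 11 with no filter, 3 with all deposited peaks, 13 with members included and 18 with the 2 groups alone, and 3 to 14 with 1 library left out. All loci called, 213 in the main setting, numbered 138, 724, 32, 133 and 497 with the higher mean, no filter, all deposited peaks, no flank and the 2 groups alone, and 59 to 439 with 1 library left out.

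With the replicate number as a block, 2397 loci were called in the sorted comparison, with 41 host loci higher and 215 lower, and 35 in the cultured one, with 0 higher and 2 lower; Fry, Pcdh7 and Dock9 lost their calls (limma adjusted p = 0.0582, 0.0582 and 0.0597). With the flow cell as a term, 2655 loci were called in the sorted comparison, with 41 host loci higher and 253 lower, and 85 in the cultured one, with 3 higher and 5 lower. Replicate 1 of every group shares a flow cell. Deviations from the group mean were correlated between same-numbered libraries of the 2 groups compared, across 9009 loci. The correlation was r = 0.0042 in the sorted groups, and -0.0062, 0.0011 and 0.0038 in the cultured groups. With 2 libraries per sorted group, both replicates give the same value. A correlation over all loci cannot show whether a flow cell moved single loci. With loci kept by their mean in the groups not compared, 2575 and 255 loci were called in the sorted and cultured comparisons, and host loci with more and fewer summits numbered 41 and 192, and 13 and 9. The causes of these shifts were not tested. By the rule, a region just under the threshold in 1 library changes its class, and signal under the threshold was not measured.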
